A study of Rattus norvegicus with 9 samples.

Results

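The proteasome is the barrel-shaped protease that degrades ubiquitin-tagged proteins, and 41 of the 28935 genes of the count table were described here: the subunits of the constitutive proteasome, their assembly chaperones and the constitutive activators. The members were picked out by gene symbol, with no threshold on a measured value, but earlier results of these data were known when the family was chosen; the immunoproteasome subunits were left out. They comprised 7 alpha and 7 beta subunits of the 20S core, 6 ATPases and 4 other subunits of the 19S base, 8 lid subunits, 3 base chaperones, 4 core assembly factors and 2 activators. Stranded mRNA libraries came from ventricular myocytes isolated from Sprague-Dawley rats 1 to 2 days old. The cells stood 48 h in medium with 3% fetal bovine serum and then received 8 µL of adenovirus in 1 mL of serum-free medium per well of a 12-well plate, and RNA was taken 48 h later. A virus for Nfe2l1, a virus for Nfya and a virus for GFP, the negative control, were each used for 3 libraries, 9 in all. All groups therefore carried an adenovirus, and the study asks what overexpression of either factor changes. The labels give neither the promoter nor the titre of the viruses and do not tell whether replicate libraries derive from separate cultures. The p-values therefore describe the variation among these libraries, which could be technical.

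In the 26S proteasome the core holds the proteolytic sites between rings of alpha and beta subunits, the base binds and unfolds ubiquitin-tagged proteins with its ring of ATPases, and the lid removes the ubiquitin chains. Dedicated chaperones build the core and the base separately. NFE2L1 is a cap'n'collar transcription factor that is anchored in the endoplasmic reticulum membrane, extracted and degraded while proteasomes are active, and released to induce proteasome genes when they are inhibited. NFYA confers DNA binding on the NF-Y complex, which recognises CCAAT boxes in promoters. Heart muscle cells depend on the proteasome to turn over damaged contractile proteins.

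The Nfe2l1-labelled libraries held more mRNA of most proteasome genes than the GFP libraries, and the Nfya-labelled libraries held slightly less of many of them. Of the 40 members with enough counts to be tested, 36 rose and 0 fell in the Nfe2l1-labelled libraries, with a median log2 fold change of 0.28 (1.21-fold); of all genes tested, 28.9% rose and 29.7% fell. In the Nfya-labelled libraries 0 members rose and 15 fell, with a median of -0.11; of all genes tested, 24.3% rose and 27.9% fell. The medians over all genes tested were -0.01 for Nfe2l1 against GFP and -0.02 for Nfya against GFP. The summed level of the 40 members was 5799, 5907 and 5395 CPM (counts scaled to library size) in the Nfe2l1-labelled libraries, 4424, 4469 and 4417 CPM in the Nfya-labelled libraries and 4799.8, 4762 and 5046 CPM in the GFP libraries. These sums did not overlap between any of the groups. In such bulk libraries, fewer cells of a type and less RNA per cell cannot be told apart. They averaged 5700.2 ± 269.9 CPM in the Nfe2l1-labelled libraries, 4437 ± 28.2 CPM in the Nfya-labelled ones and 4869 ± 154 CPM in the GFP libraries (SD, n = 3 each).

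CPM levels use TMM library sizes, and changes are log2 fold changes ± SE from edgeR's quasi-likelihood test, fitted once to the 9 libraries. A gene was called, and is said to have risen or fallen, where its adjusted p (Benjamini-Hochberg, over 14151 tested genes) lay below 0.05. The remaining member, Pomp, which encodes the factor that completes the maturation of the core, had 2, 4 and 2 counts in the Nfe2l1-labelled libraries, 2, 1 and 1 in the Nfya-labelled libraries and 2, 0 and 1 in the GFP libraries. With 15 counts in all it was not tested, and the table gives it no length. For 18 of the 41 members, RefSeq's rat gene table lists like-named copies, 47 in all, of which 0 had a row in the count table. How reads shared with such copies were assigned is not given in the sources used here, so the counts of these members are uncertain. They include Psmb3 with 10 copies, Psma6 with 5, Psme3 with 4 and Pomp itself with 2.

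The virus genes themselves served as a check of the labels. Nfe2l1 had 241, 245 and 233 CPM with the Nfe2l1 virus, 218, 223 and 227 CPM with the Nfya virus and 242, 234 and 246 CPM with the GFP virus. Its libraries overlapped between the Nfe2l1-labelled group and GFP, and the log2 fold change was -0.01 ± 0.03 (edgeR adjusted p = 0.856). Nfya had 90.5, 91.7 and 94.8 CPM in Nfe2l1-labelled, 89.2, 88.3 and 89.6 CPM in Nfya-labelled and 81.4, 81.9 and 77.8 CPM in GFP libraries. It rose in the Nfya-labelled libraries by 0.15 ± 0.04 (edgeR adjusted p = 0.00926), and also in the Nfe2l1-labelled libraries by 0.20 ± 0.04 (edgeR adjusted p = 0.000206). The counted rat genes thus show no marked rise of the gene named on either virus, and the groups are called by their labels throughout. The words "with the Nfe2l1 virus" and "with the Nfya virus" mean only the libraries that carry that label. The call for Nfya in the Nfya-labelled libraries was lost in DESeq2 and among libraries of near-equal depth, and the virus-derived mRNA was not measured separately.

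Library totals ranged from 5712123 counts (GFP library 3) to 7310774 (Nfe2l1-labelled library 3), and most proteasome genes were lower in the deeper libraries of these groups. In the Nfe2l1-labelled group, the deepest library lay below the shallowest in 40 of 40 members, with a median log2 difference of -0.13. In the GFP group it lay below in 38 of 40, with a median of -0.08, and in the Nfya-labelled group, whose totals were close, in 19 of 40, with a median of 0.0047. Proteasome genes were densely covered: 22 of 40 (55%) had more than 0.5 counts per base of gene length, against 708 of all 14986 genes with a length (4.72%). All 708 dense genes together were lower in the deepest library by a median of -0.13 in the Nfe2l1-labelled group and -0.12 in the GFP group, and 3873 sparsely covered genes were higher by 0.09 and 0.12. Counts per base of members ran from 0.0927 to 0.686 with a median of 0.529. The part of depth and coverage in the differences between groups was not tested. In a fit of only the 5 libraries with totals within 1.01-fold of each other, chosen after the totals were seen (Nfe2l1-labelled 1 and 2, Nfya-labelled 1 and 2, GFP 1), 37 members rose in the Nfe2l1-labelled libraries with a median of 0.35, and 6 fell in the Nfya-labelled libraries with a median of -0.06. GFP has 1 library there, which is assumed to vary like the other groups.

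**Figure D1:**
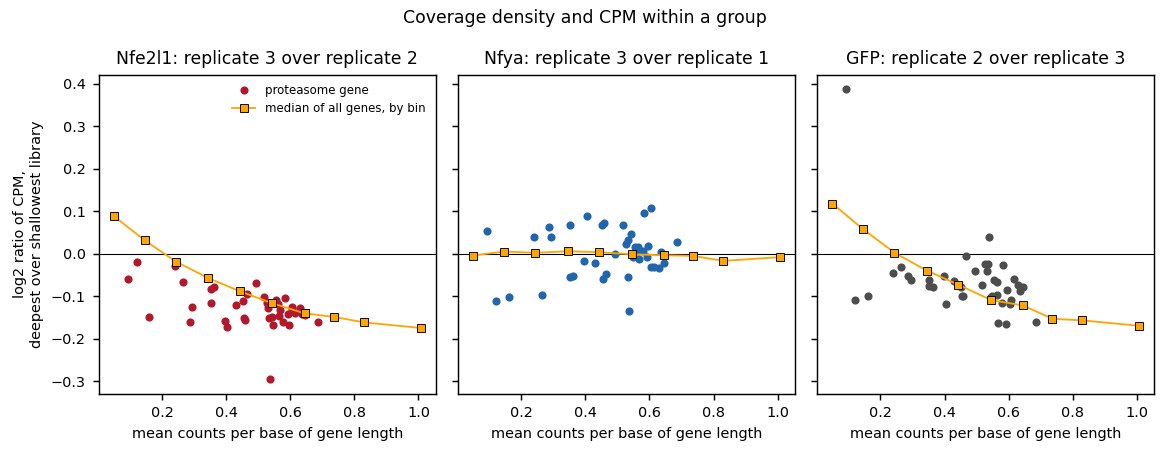
Log2 ratio of the deepest over the shallowest library of each group (vertical axis) against mean counts per base of gene length (horizontal axis), for the Nfe2l1-labelled, Nfya-labelled and GFP groups, with a point for each of the 40 members and a line for the median of all genes in bins of coverage. The members lie low in the Nfe2l1-labelled group (median -0.13) and the GFP group (median -0.08) and near 0 in the Nfya-labelled group (median 0.0047).

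Promoter sequences of the members that changed most in the Nfe2l1-labelled libraries, and of the member with the lowest change, are shown because both factors act on promoters. RefSeq's rat table (GRCr8) held a window of 250 bases before to 50 bases after the start for 37 of the 41 members. Promoters of Psma7, Psmd6, Psmd12 and Psmd14 were not analysed here. Letter patterns were searched on both strands. TGACNNNGC is the core of the antioxidant response element that cap'n'collar factors bind with small Maf partners, TGANTCA is the palindromic core of the AP-1 type, and CCAAT is the box that NF-Y binds. The first pattern can overlap the second, but 0 members matched both. Below are the 250 bases before the start, 5′ to 3′ along the gene, with CCAAT matches in capitals (ATTGG where the match is on the opposite strand); none of the 5 stretches held either of the other patterns. Psmd10 lies at chrX:109453606-109453855 (minus strand), Psmb3 at chr10:83193537-83193786, Psma5 at chr2:198584255-198584504, Psmc5 at chr10:91687303-91687552 and Psme3 at chr10:86757683-86757932 (all plus strand).
Psmd10: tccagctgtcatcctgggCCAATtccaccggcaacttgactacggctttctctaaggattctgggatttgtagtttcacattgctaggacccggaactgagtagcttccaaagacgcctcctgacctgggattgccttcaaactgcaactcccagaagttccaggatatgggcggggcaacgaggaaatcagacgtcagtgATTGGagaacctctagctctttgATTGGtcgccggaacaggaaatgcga
Psmb3: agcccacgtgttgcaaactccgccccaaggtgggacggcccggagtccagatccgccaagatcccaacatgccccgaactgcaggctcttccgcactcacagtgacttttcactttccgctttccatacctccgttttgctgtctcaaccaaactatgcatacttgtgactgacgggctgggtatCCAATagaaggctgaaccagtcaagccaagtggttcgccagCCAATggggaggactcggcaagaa
Psma5: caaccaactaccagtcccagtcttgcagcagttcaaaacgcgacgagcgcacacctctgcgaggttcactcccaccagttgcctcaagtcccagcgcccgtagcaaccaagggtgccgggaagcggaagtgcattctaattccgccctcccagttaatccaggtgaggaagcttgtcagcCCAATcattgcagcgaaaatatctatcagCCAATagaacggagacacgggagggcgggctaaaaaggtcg
Psmc5: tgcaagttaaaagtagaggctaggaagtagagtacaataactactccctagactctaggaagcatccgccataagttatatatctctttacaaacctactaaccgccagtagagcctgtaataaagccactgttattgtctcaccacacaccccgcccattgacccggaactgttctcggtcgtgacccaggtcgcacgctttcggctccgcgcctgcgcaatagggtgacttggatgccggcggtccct
Psme3: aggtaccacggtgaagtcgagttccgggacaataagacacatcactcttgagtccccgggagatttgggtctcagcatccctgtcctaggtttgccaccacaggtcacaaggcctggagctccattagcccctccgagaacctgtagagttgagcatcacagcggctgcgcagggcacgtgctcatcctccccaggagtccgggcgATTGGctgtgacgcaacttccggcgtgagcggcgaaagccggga
Psmd10, Psmb3 and Psma5, which changed most, carried CCAAT matches here, Psmc5 carried none, and Psme3, the member with the lowest change, carried 1. Over all members with a window and a test, the median log2 fold change with the Nfe2l1 virus was 0.24 in the 19 with CCAAT and 0.31 in the 17 without it.

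Over all 37 windows, TGACNNNGC was found in 9 members (24.3%), against 12.1% of all 33469 windows and 14.6% of the windows of tested genes. The members with a match include 3 beta subunits and the activator Psme4, and the 29 bases around the match are given with the pattern in capitals: Psmb2 at chr5:144254980-144255008 (plus strand), Psmb5 at chr15:32047421-32047449 (minus strand), Psmb6 at chr10:55737854-55737882 (plus strand) and Psme4 at chr14:108706578-108706606 (minus strand).
Psmb2: cccgcgccaaTGACCGGGCggtcgcatat
Psmb5: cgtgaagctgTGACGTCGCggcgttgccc
Psmb6: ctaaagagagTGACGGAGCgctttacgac
Psme4: ggcgaggaggTGACCCAGCggctttctcc
The other members with this pattern were Psma3, Psmd1, Adrm1, Psmd3 and Psmd9. By role they were 1 of 6 alpha subunits with a window, 3 of 7 beta subunits, 0 of 6 ATPases, 2 of 4 other base subunits, 1 of 5 lid subunits, 1 of 3 base chaperones, 0 of 4 core assembly factors and 1 of 2 activators. TGANTCA was found in Psmc6 alone (2.70% of members, against 7.33% of all windows). CCAAT was found in 19 members (51.4%, against 37.5% of all windows and 36.8% of those of tested genes), among them 5 of 6 alpha subunits with a window. The median log2 fold change in the Nfe2l1-labelled libraries was 0.22 over the 9 members with TGACNNNGC and 0.28 over the 27 tested members without it. In the Nfya-labelled libraries the median was -0.12 over the 19 members with CCAAT and -0.10 over the 17 without it. A match is only a run of letters in this window, and no binding was measured.

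The comparison of the Nfe2l1-labelled with the GFP libraries asks which genes the Nfe2l1 virus changes. The 36 members that rose had fold changes between 1.07 and 1.43. All 3 Nfe2l1-labelled libraries lay above all 3 GFP libraries in 32 members and below them in 1 (Psme3), against 31.7% and 32.4% of all genes. The 4 members that were not called were Psma3, Psmg2, Psme3 and Psme4. In the authors' deposited table of the same comparison, 34 of the 40 members were higher and 0 lower at an FDR below 0.05, against 28.1% and 28.7% of its genes, and all 34 were also called here.

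For the Nfya-labelled against the GFP libraries, which asks what the Nfya virus changes, the 15 members that fell had fold changes between 0.816 and 0.924. All 3 Nfya-labelled libraries lay below all 3 GFP libraries in 27 members and above them in 1 (Psmd8), against 33.2% and 28.4% of all genes. The count of members that fell depended on single libraries: 6 fell without GFP library 1, 9 without GFP library 2, 9 without GFP library 3 and 9 without Nfe2l1-labelled library 1. DESeq2 called 6, and 19 fell after an assumed ceiling on the counts per base of a gene was inverted. Psma3, Psmd11, Psmd14 and Psme4 were called under each of the 19 alternative settings. Psmd8 was called higher in 4 alternative settings, those that left out Nfe2l1-labelled library 1 or 3, kept only the 6 libraries compared or tested genes averaging 5 CPM or more. In the authors' deposited table, 9 members were lower and 1 higher (Psmd8), against 23.3% and 27.1% of its genes, and the 9 were also called here.

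Set against each other, the Nfe2l1-labelled libraries exceeded the Nfya-labelled libraries in 37 members and fell below them in 0, against 25.4% and 25.2% of all genes tested. Here all 3 libraries of one group lay above all 3 of the other in 39 of 40 members, where the Nfe2l1-labelled group was the higher, against 29.7% of all genes, and in 30.3% of all genes it was the lower. The median was 0.36, against -0.01 over all genes. Psmd10, Psmg2 and Psme3 were not called. The comparisons with GFP share the same 3 GFP libraries, so their calls are given side by side only: 12 members rose with the Nfe2l1 virus and fell with the Nfya virus, 24 rose with the Nfe2l1 virus and were not called with the Nfya virus, 3 (Psma3, Psme3, Psme4) fell with the Nfya virus and were not called with the Nfe2l1 virus, and Psmg2 was called with neither. In 35 of 40 members the Nfe2l1-labelled mean lay above, and the Nfya-labelled mean below, the GFP mean; Psmd8, Psmd10 and Psmg1 had Nfya-labelled means above it.

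**Figure D2:**
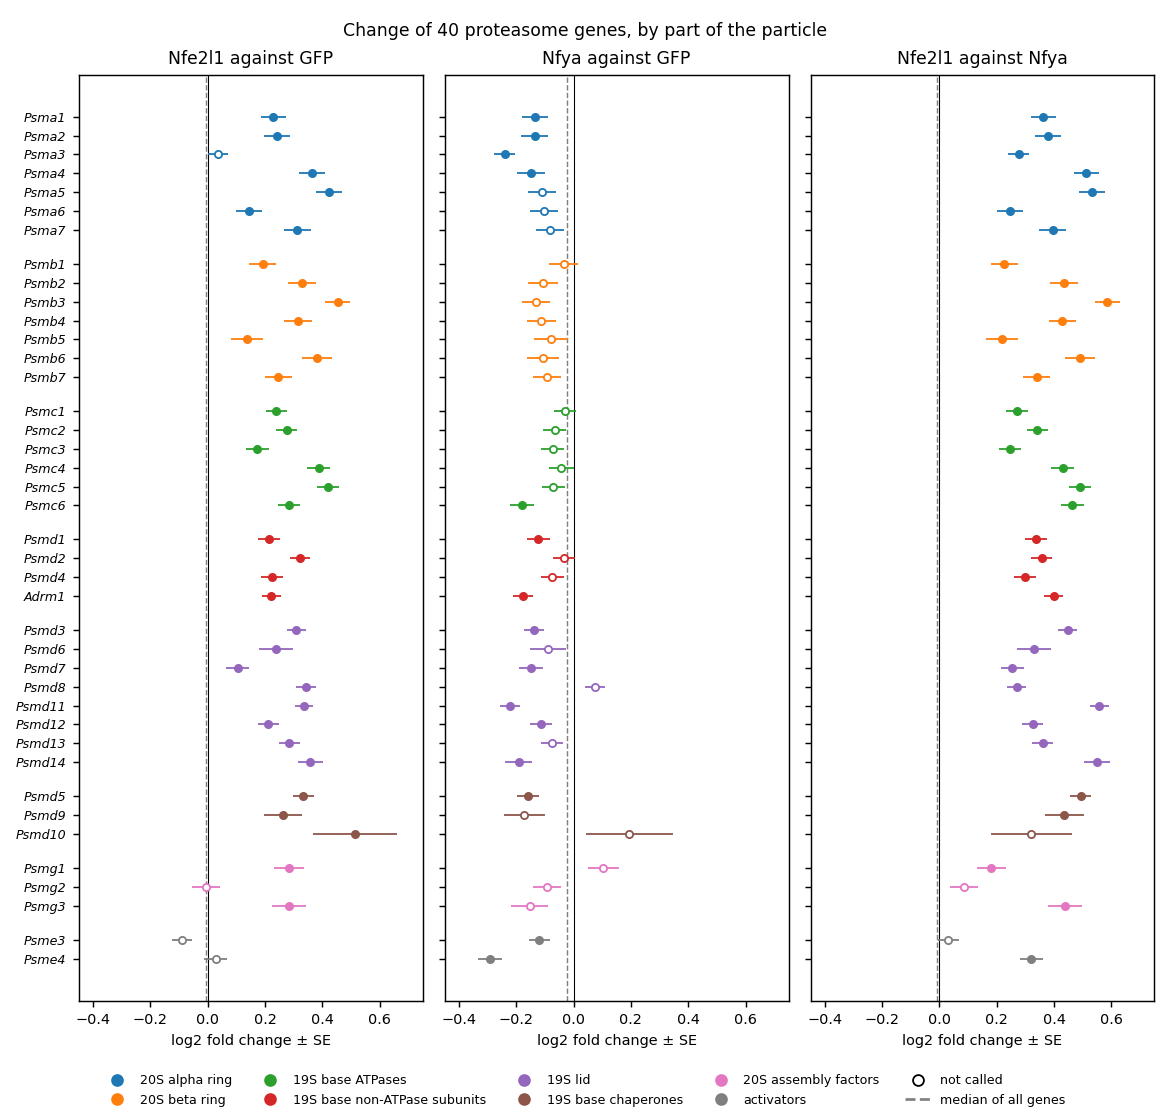
Log2 fold change of each of the 40 members (points, with bars of ± 1 SE), grouped by structural role, for Nfe2l1 against GFP, Nfya against GFP and Nfe2l1 against Nfya; filled points were called at an adjusted p below 0.05. Most points of Nfe2l1 against GFP lie above 0 in every role but the activators, with a median of 0.28 over all members, and most of Nfya against GFP lie just below 0, with a median of -0.11.

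By structural part, rises in the Nfe2l1-labelled libraries were called in 13 of 14 core subunits, 10 of 10 base subunits, 8 of 8 lid subunits, 5 of 6 tested assembly proteins and 0 of 2 activators. The median log2 fold changes were 0.28 in the core, 0.26 in the base, 0.30 in the lid, 0.28 in the assembly proteins and -0.03 in the activators. Falls in the Nfya-labelled libraries were called in 4 of 14 core, 3 of 10 base and 5 of 8 lid subunits. They were also called in 1 of 6 tested assembly proteins and in both activators. Of all genes tested, 28.9% rose with the Nfe2l1 virus and 27.9% fell with the Nfya virus. The shares of core and base subunits that fell were thus near that of all genes. Medians with the Nfya virus were -0.11 in the core, -0.07 in the base, -0.13 in the lid, -0.12 in the assembly proteins and -0.21 in the activators. The core, base, lid and assembly parts thus had close medians in both comparisons, and the activators the lowest in each. Differences between parts were not tested.

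The alpha subunits form the outer rings of the core and gate its entrance. In the Nfe2l1-labelled libraries 6 of 7 rose (median 0.24), and in the Nfya-labelled libraries 4 of 7 fell (median -0.13). Psma5 had 106, 105 and 94.2 CPM in the Nfe2l1-labelled libraries, 69.3, 69.6 and 70.8 CPM in the Nfya-labelled libraries and 73.7, 75.8 and 77.1 CPM in the GFP libraries. All Nfe2l1-labelled libraries were high, all Nfya-labelled ones low, and no groups overlapped. Its rise with the Nfe2l1 virus was 0.42 ± 0.05 (edgeR adjusted p = 8.07e-07), the largest of the alpha subunits, and its change with the Nfya virus was -0.11 ± 0.05 (edgeR adjusted p = 0.0762). Psma3 had 258, 258 and 238 CPM with the Nfe2l1 virus, 211, 204 and 207 CPM with the Nfya virus and 243, 241 and 252 CPM with the GFP virus. Here the Nfe2l1-labelled and GFP libraries overlapped and the Nfya-labelled ones lay below both. Psma3 fell by 0.24 ± 0.04 with the Nfya virus (edgeR adjusted p = 3.7e-05), the lowest of the alpha subunits, and its change with the Nfe2l1 virus was 0.04 ± 0.04 (edgeR adjusted p = 0.409). That change was called without Nfe2l1-labelled library 3 and among libraries of near-equal depth, where it was 0.11. The remaining alpha subunits Psma1, Psma2, Psma4, Psma6 and Psma7 rose by 0.14 to 0.36 with the Nfe2l1 virus; the call for Psma6, 0.14 ± 0.05, was lost without Nfe2l1-labelled library 2 and in DESeq2. Psma1, Psma2 and Psma4 fell with the Nfya virus, with log2 fold changes of -0.13 ± 0.05, -0.14 ± 0.05 and -0.15 ± 0.05, and each of these calls was lost when any of the GFP libraries was left out. The call for Psma1 was also lost without Nfe2l1-labelled library 1 or 3 or Nfya-labelled library 1 or 2, that for Psma2 without Nfe2l1-labelled library 1 or 3 or Nfya-labelled library 2, and that for Psma4 without Nfe2l1-labelled library 1 or Nfya-labelled library 3. All 3 calls were also lost in DESeq2, at a mean of 5 CPM or more and among libraries of near-equal depth. In all, the call for Psma1 was lost in 13 of 19 alternative settings, that for Psma2 in 12 and that for Psma4 in 9. Psma5 and Psma6 were called lower with the Nfya virus with the ceiling on counts per base inverted (edgeR adjusted p = 0.0405 and 0.0444).

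The beta subunits form the inner rings, and Psmb5, Psmb6 and Psmb7 carry the chymotrypsin-like, caspase-like and trypsin-like sites. All 7 rose in the Nfe2l1-labelled libraries (median 0.32), and 0 of 7 were called in the Nfya-labelled libraries (median -0.11). Psmb3, a subunit without a catalytic site, had 84.6, 87.0 and 79.6 CPM in Nfe2l1-labelled, 56.9, 55.5 and 54.7 CPM in Nfya-labelled and 59.4, 61.0 and 62.8 CPM in GFP libraries. The 3 groups did not overlap. Its rise with the Nfe2l1 virus, 0.45 ± 0.04 (edgeR adjusted p = 2.54e-07), was the largest among the core subunits, and its change with the Nfya virus was -0.13 ± 0.05 (edgeR adjusted p = 0.056). Psmb5 had 58.3, 62.1 and 55.1 CPM in the Nfe2l1-labelled libraries, 47.7, 52.1 and 50.7 CPM in the Nfya-labelled libraries and 51.3, 51.9 and 56.3 CPM in the GFP libraries. The GFP libraries overlapped those of both viruses, while every Nfe2l1-labelled library lay above every Nfya-labelled one. Psmb5 changed least of the beta subunits, by 0.14 ± 0.06 with the Nfe2l1 virus (edgeR adjusted p = 0.0441), a call lost without GFP library 1, GFP library 2, Nfe2l1-labelled library 1, Nfe2l1-labelled library 2 or Nfya-labelled library 3, in DESeq2, in the 6 libraries alone and with the replicate block. Psmb4, a further subunit without a catalytic site, had 105, 109 and 97.5 CPM with the Nfe2l1 virus, 75.4, 78.4 and 76.8 CPM with the Nfya virus and 82.0, 79.5 and 88.8 CPM with the GFP virus. Its groups did not overlap, and it rose by 0.32 ± 0.05 with the Nfe2l1 virus (edgeR adjusted p = 3.09e-05). The catalytic Psmb6 and Psmb7 rose by 0.38 ± 0.05 and 0.25 ± 0.05, Psmb2 by 0.33 ± 0.05 and Psmb1 by 0.19 ± 0.05. Of the beta subunits, 3 were called lower with the Nfya virus in 1 alternative setting each: Psmb3 and Psmb4 with an assumed ceiling on counts per base inverted (edgeR adjusted p = 0.0148 and 0.0319), and Psmb6 without Nfya-labelled library 2 (edgeR adjusted p = 0.0495).

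**Figure D3:**
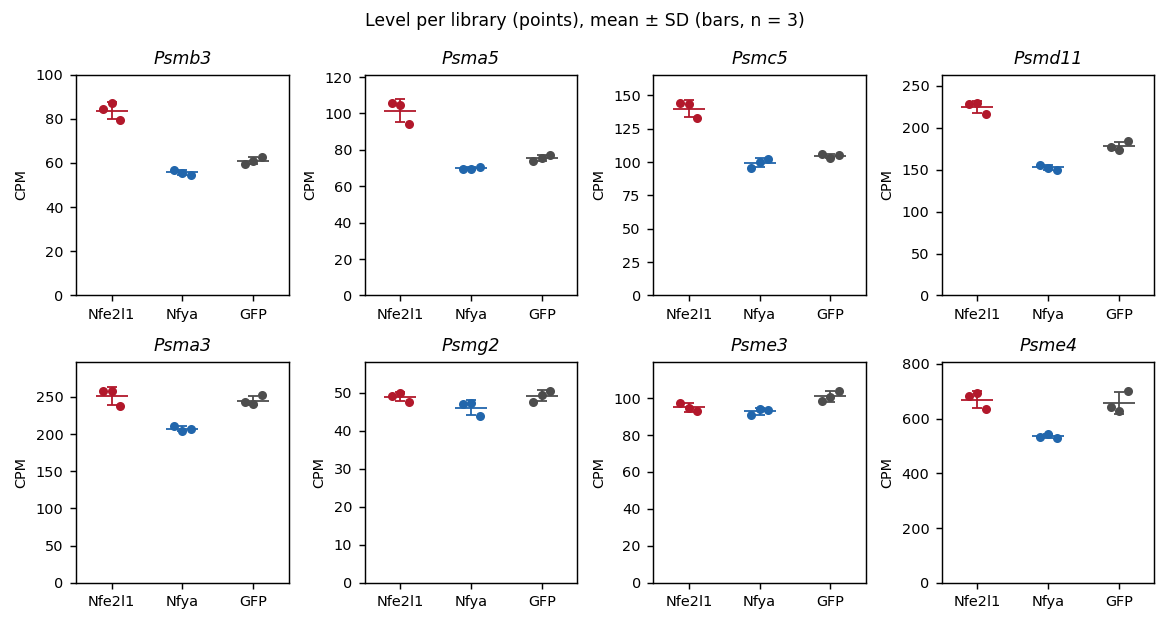
Level in CPM (vertical axis, from 0) of 8 members in each library, with Nfe2l1-labelled, Nfya-labelled and GFP libraries from left to right and a bar at the mean of each group. Psmb3, Psma5, Psmc5 and Psmd11 are high in the Nfe2l1-labelled libraries, Psma3 and Psme4 are low in the Nfya-labelled ones only, and Psmg2 and Psme3 were not called with the Nfe2l1 virus.

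The ATPases Psmc1 to Psmc6 form the ring of the base that unfolds substrates and opens the core. All 6 rose in the Nfe2l1-labelled libraries (median 0.28), with no overlap with GFP in any of the 6, and 1 of 6 fell in the Nfya-labelled libraries (median -0.07). Psmc5 had 144, 143 and 133 CPM in Nfe2l1-labelled, 95.8, 100.1 and 102 CPM in Nfya-labelled and 106, 103 and 105 CPM in GFP libraries. The Nfe2l1-labelled libraries were far above the others, and the Nfya-labelled ones just below GFP without overlap. Its rise with the Nfe2l1 virus was 0.42 ± 0.04 (edgeR adjusted p = 1.16e-07), the largest of the ATPases. Psmc3 had 176, 178 and 163 CPM in the Nfe2l1-labelled libraries, 147, 144 and 143 CPM in the Nfya-labelled libraries and 146, 152 and 160.1 CPM in the GFP libraries. Its Nfe2l1-labelled libraries lay above all others, and those of the Nfya virus and GFP overlapped. The change of Psmc3 with the Nfe2l1 virus, 0.17 ± 0.04 (edgeR adjusted p = 0.0014), was the smallest of the ATPases. Psmc6 had 172, 178 and 159.9 CPM with the Nfe2l1 virus, 122, 126 and 121 CPM with the Nfya virus and 138, 138 and 143 CPM with the GFP virus. The groups did not overlap, and Psmc6 was the ATPase that fell with the Nfya virus, at -0.18 ± 0.04 (edgeR adjusted p = 0.00172), a call lost among libraries of near-equal depth. Psmc1, Psmc2 and Psmc4 rose by 0.24 ± 0.04, 0.28 ± 0.04 and 0.39 ± 0.04 with the Nfe2l1 virus.

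The other base subunits are the scaffold proteins Psmd1 and Psmd2 and the ubiquitin receptors Psmd4 and Adrm1. All 4 rose in the Nfe2l1-labelled libraries (median 0.22), and Psmd1 and Adrm1 fell in the Nfya-labelled libraries. Psmd2 had 343, 352 and 318 CPM in Nfe2l1-labelled, 266, 262 and 262 CPM in Nfya-labelled and 267, 264 and 279 CPM in GFP libraries. The Nfe2l1-labelled libraries were high, and the Nfya-labelled and GFP libraries overlapped. It rose by 0.32 ± 0.04 with the Nfe2l1 virus (edgeR adjusted p = 1.4e-06), and its change with the Nfya virus was -0.03 ± 0.04 (edgeR adjusted p = 0.476). Psmd1 had 347, 351 and 318 CPM in the Nfe2l1-labelled libraries, 265, 274 and 265 CPM in the Nfya-labelled libraries and 285, 287 and 305 CPM in the GFP libraries. Its groups did not overlap, with a rise of 0.21 ± 0.04 with the Nfe2l1 virus (edgeR adjusted p = 0.000167) and a change of -0.12 ± 0.04 with the Nfya virus (edgeR adjusted p = 0.0153). The fall with the Nfya virus was lost without any one of GFP libraries 1, 2 and 3, Nfe2l1-labelled library 1 and Nfya-labelled libraries 1 and 3, and also in DESeq2 and at near-equal depth. In all, this Psmd1 call was lost in 11 of 19 alternative settings. Adrm1 had 122, 129 and 123 CPM with the Nfe2l1 virus, 95.5, 92.5 and 95.4 CPM with the Nfya virus and 106, 106 and 109 CPM with the GFP virus. No groups overlapped. It rose by 0.22 ± 0.03 with the Nfe2l1 virus (edgeR adjusted p = 2.82e-05) and had the lowest change of these 4 with the Nfya virus, -0.18 ± 0.04 (edgeR adjusted p = 0.000524), a call lost among libraries of near-equal depth. Psmd4 rose by 0.22 ± 0.04 with the Nfe2l1 virus.

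The lid cleaves ubiquitin chains from substrates, through Psmd14 in a pair with Psmd7. All 8 lid subunits rose in the Nfe2l1-labelled libraries (median 0.30), and 5 of 8 fell in the Nfya-labelled libraries (median -0.13). Psmd14 had 139, 140.0 and 126 CPM in Nfe2l1-labelled, 89.5, 92.2 and 94.1 CPM in Nfya-labelled and 104, 102 and 109.7 CPM in GFP libraries. The groups did not overlap. It rose most of the lid subunits with the Nfe2l1 virus, by 0.36 ± 0.04 (edgeR adjusted p = 3.29e-06), and fell with the Nfya virus, at -0.19 ± 0.05 (edgeR adjusted p = 0.00291). Psmd7 had 141, 148 and 133 CPM in the Nfe2l1-labelled libraries, 116, 118 and 120.1 CPM in the Nfya-labelled libraries and 131, 127 and 136 CPM in the GFP libraries. Nfe2l1-labelled and GFP libraries overlapped, and the Nfya-labelled ones were low. Its change with the Nfe2l1 virus, 0.10 ± 0.04 (edgeR adjusted p = 0.0319), was lost as a call without GFP library 1, GFP library 2 or Nfe2l1-labelled library 2, in DESeq2, in the 6 libraries alone and with the replicate block. Its fall with the Nfya virus, -0.15 ± 0.04 (edgeR adjusted p = 0.00587), was lost without GFP library 1, in DESeq2 and among libraries of near-equal depth (edgeR adjusted p = 0.0690). Psmd11, which holds the lid to the core, had 228, 229 and 217 CPM with the Nfe2l1 virus, 156, 152 and 150.0 CPM with the Nfya virus and 177, 174 and 184 CPM with the GFP virus. The 3 groups lay well apart. Psmd11 rose by 0.34 ± 0.03 with the Nfe2l1 virus (edgeR adjusted p = 2.35e-07) and had the lowest change of the lid with the Nfya virus, -0.22 ± 0.03 (edgeR adjusted p = 5.45e-05). The structural subunits Psmd3, Psmd6, Psmd8, Psmd12 and Psmd13 rose by 0.21 to 0.34 with the Nfe2l1 virus. Psmd3 and Psmd12 fell with the Nfya virus, at -0.14 ± 0.04 and -0.11 ± 0.04; the call for Psmd3 was lost without GFP library 1 and in DESeq2. That for Psmd12 was lost without any one of GFP libraries 1, 2 and 3, Nfe2l1-labelled libraries 1 and 3 and Nfya-labelled library 1, and also in DESeq2 and at near-equal depth. In all, the Psmd12 call was lost in 12 of 19 alternative settings.

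The chaperones Psmd5, Psmd9 and Psmd10 hold ATPases during assembly of the base and leave the finished particle. All 3 rose in the Nfe2l1-labelled libraries (median 0.33). Psmd10, also known as gankyrin, had 8.86, 9.09 and 8.73 CPM in Nfe2l1-labelled, 6.90, 7.29 and 7.16 CPM in Nfya-labelled and 6.28, 6.94 and 5.31 CPM in GFP libraries. These are the lowest levels of the members tested, and the Nfe2l1-labelled libraries lay above all others while the Nfya-labelled and GFP libraries overlapped. Its change with the Nfe2l1 virus, 0.51 ± 0.15 (edgeR adjusted p = 0.00666), was the largest of all 40 members and had the widest error, and the call was lost in DESeq2 and among libraries of near-equal depth. Psmd9 had 28.8, 29.2 and 28.8 CPM in the Nfe2l1-labelled libraries, 22.2, 21.3 and 20.6 CPM in the Nfya-labelled libraries and 23.3, 23.6 and 25.5 CPM in the GFP libraries. Its groups did not overlap, with a rise of 0.26 ± 0.07 with the Nfe2l1 virus (edgeR adjusted p = 0.00728), lost in DESeq2, and a change of -0.17 ± 0.07 with the Nfya virus (edgeR adjusted p = 0.126). Psmd5 rose by 0.33 ± 0.04 with the Nfe2l1 virus and fell by 0.16 ± 0.04 with the Nfya virus, the fall being lost without GFP library 1 and in DESeq2.

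Psmg1 and Psmg2 form a pair of chaperones that places alpha subunits into a ring, and Psmg3 is part of a further such pair. Psmg1 and Psmg3 rose in the Nfe2l1-labelled libraries, and 0 of the 3 were called in the Nfya-labelled libraries. Psmg1 had 60.02, 62.4 and 57.5 CPM with the Nfe2l1 virus, 49.96, 56.1 and 52.3 CPM with the Nfya virus and 48.7, 48.2 and 50.8 CPM with the GFP virus. The Nfe2l1-labelled libraries were above the rest, with overlap between the Nfya virus and GFP, and the rise was 0.28 ± 0.05 (edgeR adjusted p = 0.000203). Psmg2 had 49.3, 50.004 and 47.7 CPM in Nfe2l1-labelled, 47.1, 47.4 and 44.0 CPM in Nfya-labelled and 47.7, 49.5 and 50.6 CPM in GFP libraries. The Nfe2l1-labelled and GFP libraries overlapped and the Nfya-labelled ones lay just below both. Its changes were -0.01 ± 0.05 with the Nfe2l1 virus (edgeR adjusted p = 0.933) and -0.09 ± 0.05 with the Nfya virus (edgeR adjusted p = 0.248). Psmg3 had 41.5, 43.7 and 40.1 CPM in the Nfe2l1-labelled libraries, 30.2, 31.2 and 31.0 CPM in the Nfya-labelled libraries and 32.0, 34.7 and 36.3 CPM in the GFP libraries. No groups overlapped, and it rose by 0.28 ± 0.06 with the Nfe2l1 virus (edgeR adjusted p = 0.000642), while its change with the Nfya virus was -0.15 ± 0.06 (edgeR adjusted p = 0.101).

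The activators cap the core without the base. Psme4 encodes the large nuclear activator PA200, and Psme3 the nuclear gamma form of the ring-shaped activator PA28. Psme4 had 681, 694 and 633 CPM with the Nfe2l1 virus, 534, 543 and 529.6 CPM with the Nfya virus and 642, 626 and 702 CPM with the GFP virus. The Nfe2l1-labelled and GFP libraries overlapped, and the Nfya-labelled ones were low. It fell with the Nfya virus, at -0.29 ± 0.04 (edgeR adjusted p = 2.18e-05), the lowest change of all 40 members, and its change with the Nfe2l1 virus was 0.03 ± 0.04 (edgeR adjusted p = 0.583), called only among libraries of near-equal depth, at 0.12. Psme3 had 97.2, 94.7 and 92.9 CPM in Nfe2l1-labelled, 90.9, 94.2 and 93.4 CPM in Nfya-labelled and 98.2, 101 and 104 CPM in GFP libraries. The libraries of both viruses lay below GFP and overlapped each other. Psme3 had the lowest change with the Nfe2l1 virus, -0.09 ± 0.04 (edgeR adjusted p = 0.0889), and was called with the Nfya virus, at -0.12 ± 0.04 (edgeR adjusted p = 0.0236). The call for Psme3 was lost in most alternative settings, among them the omission of any one of the GFP libraries, Nfe2l1-labelled library 1 or 3, or Nfya-labelled library 1. Between the viruses, Psme4 was higher in the Nfe2l1-labelled libraries by 0.32 ± 0.04 (edgeR adjusted p = 8.3e-06), and Psme3 differed by 0.03 ± 0.04 (edgeR adjusted p = 0.618).

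**Figure D4:**
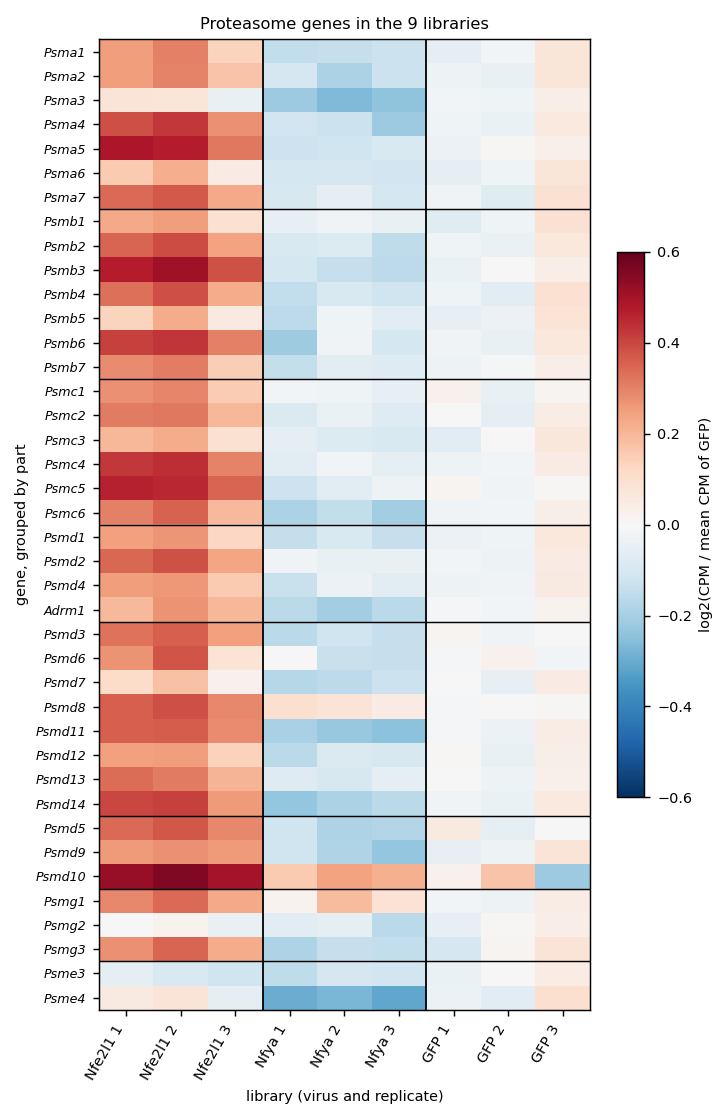
Level of each of the 40 members in each of the 9 libraries as log2 CPM minus the mean of the GFP libraries (colour), with Nfe2l1-labelled, Nfya-labelled and GFP libraries from left to right and members in rows by structural role. The Nfe2l1-labelled columns are raised in nearly all rows, least in library 3, and the Nfya-labelled columns are slightly lowered in most.

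Levels per gene length were taken from the authors' deposited RPKM values (reads scaled by length and by depth). The 40 members listed had a median of 90.3 RPKM in the Nfe2l1-labelled libraries, 69.9 RPKM in the Nfya-labelled libraries and 75.2 RPKM in the GFP libraries, against a GFP median of 17.7 RPKM over all 14986 genes listed. Psmb4 was the highest member in every group, with 123 ± 5.696 RPKM in the Nfe2l1-labelled libraries, 92.3 ± 1.77 RPKM in the Nfya-labelled libraries and 99.0 ± 5.27 RPKM in the GFP libraries (SD, n = 3 each). Psmd10 was the lowest, with means of 16.8 RPKM in the Nfe2l1-labelled libraries, 13.7 RPKM in the Nfya-labelled libraries and 11.8 RPKM in the GFP libraries. In GFP, the ranges of level per length overlapped between the parts of the finished 26S particle. The ATPases lay between 58.5 and 93.5 RPKM and the other base subunits between 73.9 and 94.6 RPKM. The lid subunits lay between 53.1 and 83.5 RPKM and the beta subunits between 41.9 (Psmb7) and 99.0 RPKM. The alpha subunits lay between 23.0 (Psma4) and 89.5 RPKM. Psma4 and Psma3 have deposited lengths of 3909 and 3559 bases, where the other alpha subunits have 874 to 1174, and RPKM divides by that length. Psmb7 likewise has 1696 bases, where the other beta subunits have 717 to 1068. The base chaperones Psmd9 and Psmd10, at 17.9 and 11.8 RPKM in GFP, stood below all subunits of the particle. In GFP the core assembly factors lay between 41.2 and 48.8 RPKM, and Psme4 and Psme3 had 91.7 and 38.4 RPKM.

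**Figure D5:**
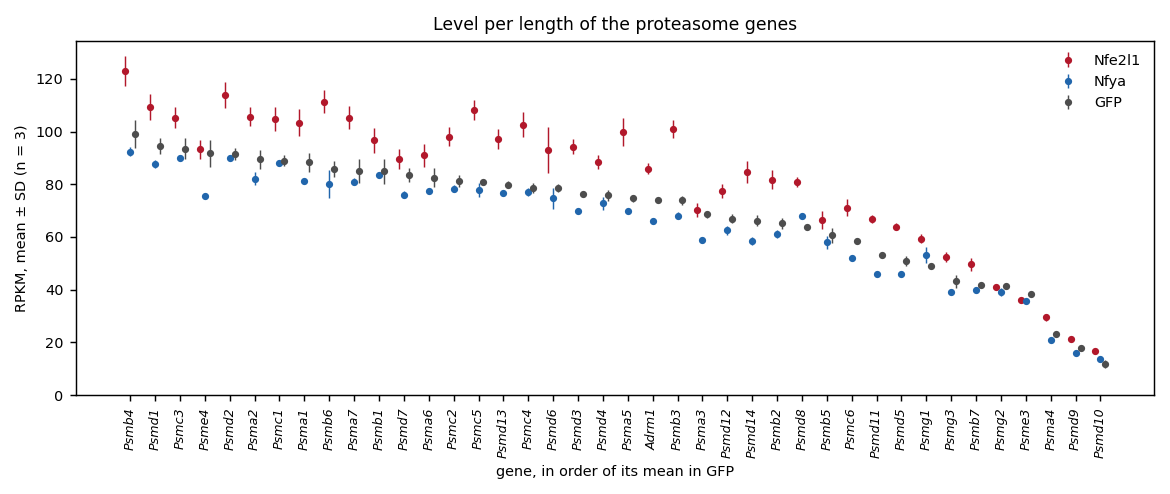
Mean RPKM (vertical axis, from 0) of each member in the Nfe2l1-labelled, Nfya-labelled and GFP libraries, with bars of ± 1 SD over 3 libraries. Members stand along the horizontal axis in order of their mean in GFP. Psmb4 reaches the highest mean, 123 RPKM in the Nfe2l1-labelled libraries, and the base chaperones Psmd9 and Psmd10 lie lowest, at 17.9 and 11.8 RPKM in GFP.

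Further genes of the pathway, which are no members, were described by lists. For comparison, 28.9% of all genes tested rose and 29.7% fell in the Nfe2l1-labelled libraries. In the Nfya-labelled libraries these shares were 24.3% and 27.9%. Of 22 other proteasome proteins and proteasome-bound factors tested, 9 rose and 0 fell in the Nfe2l1-labelled libraries (median 0.07), and 1 rose and 12 fell in the Nfya-labelled libraries (median -0.10). With the Nfe2l1 virus, Psmf1, an inhibitor of the core, rose by 0.55 ± 0.04 (edgeR adjusted p = 2.43e-08), the ubiquitin shuttle factor Ubqln2 by 0.43 ± 0.03, and Usp14, the deubiquitinase bound to the base, by 0.29 ± 0.04. With the Nfya virus, Zfand2a, a stress-induced proteasome-binding protein, fell most, at -1.40 ± 0.04 (edgeR adjusted p = 4.26e-13), followed among the genes with the smallest p by the ubiquitin ligase Ubr4 at -0.30 ± 0.03, Zfand5 at -0.28 ± 0.04 and the proteasome adaptor Ecpas at -0.23 ± 0.04. Zfand2a had 231, 234 and 217 CPM in the Nfe2l1-labelled libraries, 82.9, 80.1 and 85.9 CPM in the Nfya-labelled libraries and 221, 213 and 224 CPM in the GFP libraries. Its Nfya-labelled libraries were far below all others. Of 14 genes of p97 and ubiquitin supply, 7 rose and 3 fell in the Nfe2l1-labelled libraries (median 0.16), and 0 rose and 8 fell in the Nfya-labelled libraries (median -0.12). The p97 cofactors Faf2, Ufd1 and Faf1 rose by 0.47 ± 0.03, 0.37 ± 0.03 and 0.31 ± 0.04 with the Nfe2l1 virus, and the ubiquitin chain-extending ligase Ube4b by 0.42 ± 0.03.

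Immunoproteasome genes are induced by interferon. Of 4 tested, Psmb10 rose with the Nfe2l1 virus, by 0.49 ± 0.10 (edgeR adjusted p = 0.00031), and Psmb9 with the Nfya virus, by 0.64 ± 0.16 (edgeR adjusted p = 0.00264). A count of 1 of 4 in each comparison was near the shares of all genes tested that rose, 28.9% and 24.3%. Psmb10 had 20.5, 19.1 and 21.4 CPM with the Nfe2l1 virus, 13.6, 16.0 and 16.1 CPM with the Nfya virus and 14.6, 13.7 and 15.2 CPM with the GFP virus. Only its Nfe2l1-labelled libraries were high. The core subunits of other tissues, Psma8 of the testis and Psmb11 of the thymus, which were looked up after values were seen, had at most 2 and 6 counts in any library. Of 13 genes of NFE2L1 processing, its partners and its antagonists tested, 7 rose and 2 fell in the Nfe2l1-labelled libraries (median 0.12), and 2 rose and 7 fell in the Nfya-labelled libraries (median -0.11). The small Maf gene Maff, a dimer partner, rose by 0.66 ± 0.05 with the Nfe2l1 virus (edgeR adjusted p = 3.74e-08) and fell by 0.39 ± 0.06 with the Nfya virus (edgeR adjusted p = 9.18e-05). The small Maf gene Mafg rose by 0.17 ± 0.04 with the Nfe2l1 virus and fell by 0.47 ± 0.04 with the Nfya virus. Mafk, which had a GFP mean of 206 CPM against 39.9 CPM for Maff, fell with both viruses, at -0.18 ± 0.03 and -0.15 ± 0.03. Ngly1, the glycanase that processes NFE2L1, rose by 0.41 ± 0.04 with the Nfe2l1 virus, and Bach2, a repressor of the same sites, rose with both, by 0.78 ± 0.09 with the Nfe2l1 virus and 0.73 ± 0.09 with the Nfya virus.

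Markers of the cell types that such cultures can hold moved between the groups as well. Their counts stand beside shares of all genes tested of 28.9% risen and 29.7% fallen with the Nfe2l1 virus. With the Nfya virus the shares were 24.3% and 27.9%. Cardiomyocyte markers were abundant, with 12 of 13 in the table and none at 0, and a summed level of 3415 to 3774 CPM in the Nfe2l1-labelled libraries, 3805 to 3865 CPM in the Nfya-labelled libraries and 3545 to 3935 CPM in the GFP libraries. In the Nfe2l1-labelled libraries 1 of 12 fell (Nppa, a call lost without Nfe2l1-labelled library 3) and 0 rose, and in the Nfya-labelled libraries 4 rose and 0 fell. Of these 4, Actc1 lost its call without GFP library 2 or Nfya-labelled library 1 or 2, and Myl7 without Nfya-labelled library 2 or 3. Fibroblast markers rose in both, 9 of 10 with each virus, while the other, Col1a2, fell with the Nfya virus and varied from 6 to 117 counts among the GFP libraries. They had summed levels of 1668 to 1792 CPM in the Nfe2l1-labelled libraries, 1972 to 1998 CPM in the Nfya-labelled libraries and 1066 to 1124 CPM in the GFP libraries. Smooth muscle and pericyte markers summed to 615 to 633 CPM with the Nfe2l1 virus, 911 to 928 CPM with the Nfya virus and 842 to 849.9 CPM with GFP, and 1 of 5 rose and 3 fell with the Nfe2l1 virus, while 3 rose and 1 fell with the Nfya virus. Endothelial markers summed to 212 to 236 CPM with the Nfe2l1 virus, 209.5 to 218 CPM with the Nfya virus and 215 to 222 CPM with GFP, but their members moved apart: 4 of 6 rose and 1 fell with each virus. Tek rose by 1.87 ± 0.08 with the Nfe2l1 virus and 1.77 ± 0.08 with the Nfya virus (edgeR adjusted p = 2.07e-11 and 7.21e-11), while Kdr fell, at -0.86 ± 0.04 and -1.08 ± 0.04 (edgeR adjusted p = 2.1e-11 and 3.08e-12). Macrophage and leukocyte markers summed to 92.7 to 106 CPM with the Nfe2l1 virus, 81.0 to 93.6 CPM with the Nfya virus and 58.9 to 73.9 CPM with GFP, and 4 of 5 rose with each virus; the fifth, Csf1r, fell with the Nfya virus, at -0.44 ± 0.10 (edgeR adjusted p = 0.00219). Fibroblast sums and macrophage and leukocyte sums were thus higher than in GFP with both viruses. Smooth muscle and pericyte sums were lower than in GFP with the Nfe2l1 virus and higher with the Nfya virus, but these genes moved apart. Cspg4, with the highest mean of them in GFP (433 CPM), fell with both viruses, at -0.88 ± 0.03 and -0.38 ± 0.03. Pdgfrb rose with both, by 0.81 ± 0.07 and 1.45 ± 0.07. Myh11 was not called with the Nfe2l1 virus (0.04 ± 0.05) and rose by 0.82 ± 0.05 with the Nfya virus. The part of other cell types in the proteasome changes was not tested.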

How the data were processed

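The authors deposited whole-number counts per gene for 9 libraries, RPKM values for 14986 genes with gene lengths in bases, and an edgeR table for each virus against GFP. In those tables logFC and logCPM are log2 values, LR is, per the file headers, a likelihood ratio score, and PValue and FDR are the deposited p-value and adjusted p-value. The submitters' processing notes name FastQC 0.11.4, featureCounts 1.6.0, edgeR 3.20.5 and, as genome builds, GRCm38, mm10 and rn6. How reads were trimmed, aligned, deduplicated and assigned by strand is not given in the sources used here.

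Raw counts were tested in R 4.3.3 with edgeR 4.0.16: filterByExpr by group, TMM scaling, the quasi-likelihood F test on a group-means model of the 9 libraries (6 residual degrees of freedom), and Benjamini-Hochberg adjustment over 14151 genes. SE was obtained by dividing the size of the log2 fold change by the square root of F. Levels per length are the deposited RPKM. For the tested members these differ by at most 0.0105 of their value from counts over length and over the library's total of the genes listed with RPKM. Values in every library are given for the members with the largest and smallest change with the Nfe2l1 virus and the lowest change with the Nfya virus in each of 8 structural parts, and for the highest and lowest RPKM. From each other list the text takes genes among the 4 called with the smallest p. Mafk was added after values were seen, beside the small Maf genes Maff and Mafg. Promoter windows are RefSeq's (GRCr8), used for sequence only, since the files' builds differ. The members and lists were chosen with earlier results of these data known. Counts were also simulated for Nfe2l1 against GFP, over 13954 genes. There, 76 of 100 genes changed 1.25-fold and 94 of 100 changed 1.5-fold were recovered, with 12 other genes called. Only those genes were changed, all chosen above a minimum count, and no effect of depth and coverage was built in. The rates may therefore not hold for the real libraries. Alternatives were RLE scaling, library totals only, DESeq2 1.42.0, no filter, a mean of at least 5 CPM, the 6 libraries compared alone, each library left out, a replicate block, an adjusted p below 0.01, counts with an assumed ceiling of 1.6 per base inverted, and libraries of near-equal depth, the last added after the totals were seen.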

Additional observations from a re-analysis of the deposited data

How the results depend on the processing

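Over 19 alternative settings, 31 of the 36 members called with the Nfe2l1 virus against GFP, 4 of the 15 called with the Nfya virus against GFP and 35 of the 37 called between the viruses kept their call, and 0 called members changed direction. With the Nfe2l1 virus, 33 to 37 members rose and the median log2 fold change lay between 0.25 and 0.33 when single libraries were left out; the median was 0.33 with the ceiling inverted and 0.35 at near-equal depth, and DESeq2 called 31. With the Nfya virus, leaving out single libraries gave 6 to 15 members that fell, 0 to 1 that rose and a median between -0.12 and -0.073. There 6 fell in DESeq2, 9 at a mean of 5 CPM or more, 6 at near-equal depth, 9 at an adjusted p below 0.01 and 19 with the ceiling inverted, where the median was -0.12. In the same comparison 1 rose at a mean of 5 CPM or more and 1 in the 6 libraries alone, and the median at near-equal depth was -0.058. Between the viruses 36 to 37 members rose without single libraries, with medians of 0.32 to 0.38, and the median was 0.46 with the ceiling inverted. The causes were not tested, beyond the fewer samples or the stricter threshold that some settings bring.

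Only genes without a call changed sign. With the Nfe2l1 virus, Psmg2 was 0.028 without a filter, 0.012 at a mean of 5 CPM or more, 0.081 at near-equal depth and -0.021 to 0.027 without single libraries. Nfe2l1 itself was 0.028, 0.011 and 0.029 in the first 3 of those settings, 0.0049 with the ceiling inverted and -0.022 to 0.027 without single libraries. With the Nfya virus, at a mean of 5 CPM or more and in the 6 libraries alone, Psmb1 was 0.0051 and 0.0013, Psmc1 0.0092 and 0.0052, and Psmd2 0.0051 and 0.0010. At near-equal depth Psmb1 was 0.060, Psmc3 0.023, Psmc4 0.012, Psmd2 0.0094 and Psmg2 0.011. Without single libraries Psmb1 was -0.044 to 0.0083, Psmc1 -0.037 to 0.016 and Psmd2 -0.042 to 0.00080. Psme3 between the viruses was -0.0029 to 0.042 without single libraries, lowest without Nfe2l1-labelled library 1.

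Groups share replicate numbers, and the labels do not say whether these pair the libraries. In their deviations from group means, same-numbered libraries of different groups correlated between -0.065 and 0.049. Differently numbered ones correlated between -0.067 and 0.060. Such values cannot show whether the samples were paired. With the replicate block, 34 members rose with the Nfe2l1 virus, 15 fell with the Nfya virus and 37 rose between the viruses. The median of all genes stayed between -0.030 and 0.027 over the settings. Low counts limit Pomp and Psmd10 most.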
